A study of Mus musculus with 5 samples.

Results

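The HOX genes are the 39 mouse genes of the 4 clustered homeobox families, taken here as every gene symbol that consists of Hox, a cluster letter from a to d and a paralog number, among 23903 gene symbols in the table. The A cluster held 11 of them, the B cluster 10, the C cluster 9 and the D cluster 9. Where a gene had several transcripts, the transcript with the highest mean over the 5 libraries stood for the gene. RNA was sequenced from spheres grown from dissociated postnatal mouse adrenal glands after an immunopanning step, in which cells were caught on a dish coated with an antibody against the surface protein L1CAM. L1CAM-positive spheres, labelled as chromaffin cells, gave 2 libraries (numbers 25 and 31), and L1CAM-negative spheres, labelled as non-adrenergic cells, gave 3 libraries (numbers 25, 31 and 28). All mice were wild type, with strain C57/bl6 in the labels and OF-1 mice in the study's methods. Both fractions of number 25 came from an equal mix of P0 and P2 glands kept for 8 days in culture, both fractions of number 31 from the same mix kept for 5 days, and the L1CAM-negative library 28 from P5 glands kept for 8 days. No L1CAM-positive library of P5 was analysed here. The labels do not say what a number stands for or whether libraries came from separate animals, so the p-values below measure the spread between libraries, which may be technical.

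HOX genes encode homeodomain transcription factors that give cells their address along the head-to-tail axis of the embryo. Genes at the low-numbered end of each cluster are active from the hindbrain backward, and genes at the high-numbered end only in the lumbar, sacral and tail regions or in distal limbs, so that the highest paralog number a cell expresses marks about how far back it arose. Cells often keep this pattern after birth and in culture, and HOX proteins bind DNA together with cofactors of the PBX, MEIS and PREP families.

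The fraction labels were checked against marker genes. The summed level of 13 chromaffin markers was 9621 and 7734 FPKM (fragments scaled to transcript length and to the library's mapped fragments) in the L1CAM-positive libraries 25 and 31, against 581, 611 and 144 FPKM in the L1CAM-negative libraries 25, 31 and 28. All FPKM values here were recovered from quantile-normalised values, a step that gives each library about the same distribution. Markers of the adrenal cortex (9 genes) summed to 1921 and 2032 FPKM in L1CAM-positive libraries and 13360, 9455 and 8491 FPKM in L1CAM-negative libraries, and those of capsule and fibroblasts (11 genes) to 1407 and 1542 FPKM in L1CAM-positive libraries and 8156, 7007 and 5364 FPKM in L1CAM-negative libraries. Cortex and capsule markers were therefore lower in L1CAM-positive spheres but not at 0, and chromaffin markers were not at 0 in L1CAM-negative spheres. Tested with limma at an adjusted p under 0.05, 10 of 13 chromaffin markers were higher and 0 lower in L1CAM-positive spheres (13 and 0 at an unadjusted p under 0.05), 8 of 9 cortex markers were lower and 0 higher (8 and 0 unadjusted), and 6 of 11 capsule and fibroblast markers were lower and 0 higher (9 and 0 unadjusted). Of the 10 endothelial markers, 3 were lower in L1CAM-positive spheres and 0 higher (5 and 0 unadjusted), of 9 glial markers 5 were higher and 0 lower (6 and 0 unadjusted), and of 9 macrophage markers none passed in either direction (3 unadjusted, all lower in L1CAM-positive spheres). Over all symbols, 10.0% were lower and 11.6% higher in L1CAM-positive spheres. With a filter of at least 1 FPKM in 2 libraries these shares were 22.4% and 21.2%.

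Most HOX genes that differed between the fractions were lower in L1CAM-positive spheres. Of the 39 genes, 15 (38.5%) were lower in L1CAM-positive spheres at an adjusted p under 0.05 (limma on log2 values, Benjamini-Hochberg over all 23903 symbols), against 10.0% of all symbols. Only *Hoxd4* (2.56% of the 39) was higher in L1CAM-positive spheres, against 11.6% of all symbols. The other 23 HOX genes did not pass, and 8 of these were at the floor of the scale in every library (a log2 value of 1, read as 0 FPKM with an inferred offset of 2). For 19 HOX genes (48.7%) every L1CAM-negative library lay above both L1CAM-positive libraries, which held for 26.0% of all symbols, and for 4 (*Hoxa9*, *Hoxc4*, *Hoxd3* and *Hoxd4*) both L1CAM-positive libraries lay above, against 23.0% of all symbols. Non-overlap in either direction, 23 of 39 here, held for 48.9% of all symbols. The median log2 fold change, L1CAM-positive minus L1CAM-negative, was -0.20 over the 39 HOX genes and 0 over all symbols. Over the 31 HOX genes above the floor in at least 1 library it was -0.52, beside -0.02 over the 19549 such symbols. In bulk RNA, fewer cells of a HOX-expressing type and less HOX RNA per cell cannot be told apart. The marker sums of 4 other cell types moved the same way as the HOX genes. In L1CAM-positive spheres they were at 18.9% (cortex), 21.6% (capsule and fibroblast), 19.6% (endothelial) and 17.3% (macrophage) of the L1CAM-negative mean. The sum of the glial markers went the other way, at 916% of the L1CAM-negative mean. The part of these cell types in the HOX difference was not tested. The count of 15 depended on single libraries: it was 5 without the L1CAM-positive library 25, 4 without the L1CAM-positive library 31, 8 without the L1CAM-negative library 25, 9 without the L1CAM-negative library 31 and 13 without the L1CAM-negative library 28. It was 5 with a robust variance estimate, 8 with culture period in the model and 0 with the library number as a replicate block (15 at an unadjusted p under 0.05). The block fit gives library 28 a term of its own and leaves almost no residual degrees of freedom. Its count therefore cannot decide whether these genes differ. The direction of all 15 was the same in all 18 alternatives, but most of these could not change it. The fractions did not overlap in any of the 15, so leaving out a library cannot reverse them. Filters and variance models leave a fold change as it was.

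**Figure D1:**
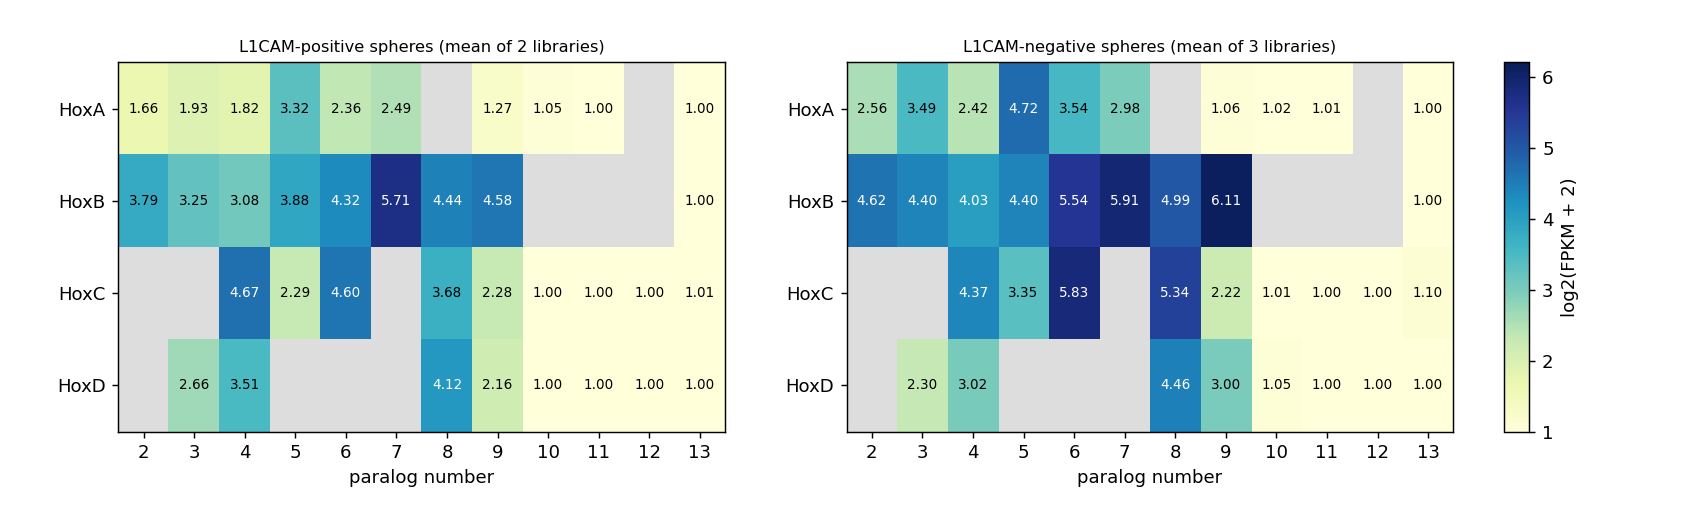
Mean level of each HOX gene, as log2(FPKM + 2), by cluster (rows) and paralog number (columns, 2 to 13), in L1CAM-positive spheres (left, 2 libraries) and L1CAM-negative spheres (right, 3 libraries). Grey marks numbers for which the mouse has no gene, and 1.00 is the floor. In both fractions signal ran through paralogs 2 to 9, except for *Hoxa9* near the floor, and was at or near the floor in paralogs 10 to 13.

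The stretch of each cluster that was transcribed was alike in the 2 fractions. The 20 genes of paralogs 2 to 8 all had a mean of at least 1 FPKM in both fractions, as did *Hoxb9*, *Hoxc9* and *Hoxd9*, which makes 23 genes in each fraction. In the A cluster *Hoxa9* was below this level, with means of 0.405 FPKM in L1CAM-positive and 0.0848 FPKM in L1CAM-negative spheres. *Hoxb1*, a hindbrain gene, was at the floor throughout, and *Hoxd1* was above it only in the L1CAM-positive library 31 (0.0499 FPKM). None of the 12 genes of paralogs 10 to 13 exceeded 0.212 FPKM in any library, and none passed the test (0 at an unadjusted p under 0.05 in limma). These include the genes that pattern the lumbar and sacral spine and the tail. *Hoxc13*, the highest gene of paralog 13, was at 0 and 0.0345 FPKM in L1CAM-positive libraries and 0.177, 0.0531 and 0.212 FPKM in L1CAM-negative libraries. *Hoxa10* was at 0.0671 and 0.0882 FPKM in L1CAM-positive libraries and 0, 0 and 0.0767 FPKM in L1CAM-negative libraries, and *Hoxa11* was above 0 only in the L1CAM-negative library 28 (0.0625 FPKM). *Hoxc10* (0.0585 FPKM in the L1CAM-negative library 31) and *Hoxd10* (0.0656 and 0.138 FPKM in the L1CAM-negative libraries 31 and 28) were at 0 in both L1CAM-positive libraries. *Hoxa13*, *Hoxb13*, *Hoxc11*, *Hoxc12*, *Hoxd11*, *Hoxd12* and *Hoxd13* were at the floor in all 5. The files give no read depth, so values this low were not distinguishable from few fragments. Over the 25 genes above the floor in all libraries, the mean log2 levels of the fractions had a Pearson r of 0.89 and a Spearman rho of 0.86, across genes that share their libraries. Summed markers of cortex, capsule and fibroblast, endothelial cells and macrophages were above 0 in L1CAM-positive spheres. The part of such cells in this likeness was not tested.

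The A cluster lies on chromosome 6 of GRCm38.p6, the assembly also called mm10, and had the largest relative difference in summed level, with 5 of 11 genes lower in L1CAM-positive spheres and none higher (1 at an unadjusted p under 0.05 in limma, *Hoxa9*). Over all symbols, 10.0% were lower and 11.6% higher. *Hoxa2*, which specifies the second pharyngeal arch, was at 1.06 and 1.27 FPKM in the L1CAM-positive libraries 25 and 31, against 3.60, 4.12 and 4.0 FPKM in the L1CAM-negative libraries 25, 31 and 28. *Hoxa3*, needed for the thymus and parathyroid, was at 1.80 and 1.81 FPKM in L1CAM-positive libraries and 8.44, 8.59 and 10.9 FPKM in L1CAM-negative libraries. The fractions did not overlap in either gene, and the *Hoxa3* level in L1CAM-positive spheres was 19.4% of that in L1CAM-negative spheres, the smallest share among the 15 genes. Its log2 fold change was -1.57 ± 0.13 (SE; adjusted p = 0.00817, limma), and that of *Hoxa2* was -0.90 ± 0.07 (adjusted p = 0.00785, limma). *Hoxa5*, a regulator of lung and of the neck-to-thorax transition of the skeleton, was the highest A gene, at 7.67 and 8.32 FPKM in L1CAM-positive libraries and 21.5, 22.0 and 30.4 FPKM in L1CAM-negative libraries. *Hoxa6*, a trunk gene, was at 4.02 and 2.38 FPKM in L1CAM-positive libraries and 7.58, 10.1 and 11.4 FPKM in L1CAM-negative libraries. *Hoxa7*, its neighbour, was at 3.86 and 3.41 FPKM in L1CAM-positive libraries and 5.64, 5.85 and 6.17 FPKM in L1CAM-negative libraries. In all 3 the lowest L1CAM-negative library exceeded the highest L1CAM-positive one. Their log2 fold changes were -1.40 for *Hoxa5* (adjusted p = 0.0170), -1.18 for *Hoxa6* (adjusted p = 0.0445) and -0.49 for *Hoxa7* (adjusted p = 0.0286, all limma). *Hoxa4* was also separated, with 1.57 and 1.47 FPKM in L1CAM-positive libraries and 2.79, 2.53 and 5.13 FPKM in L1CAM-negative libraries, but did not pass (adjusted p = 0.189, limma). Without the L1CAM-negative library 28, which held its highest value, *Hoxa4* passed.

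The B cluster (chr11:96194316-96368254) had 6 of 10 genes lower in L1CAM-positive spheres and none higher (0 at an unadjusted p under 0.05 in limma), beside 10.0% and 11.6% of all symbols. *Hoxb9*, a posterior thoracic gene that shapes the ribs, was at 21.4 and 22.4 FPKM in the L1CAM-positive libraries, against 73.2, 62.9 and 65.7 FPKM in the L1CAM-negative libraries. It was the highest HOX gene of the L1CAM-negative spheres, with a log2 fold change of -1.53 ± 0.08 (SE; adjusted p = 0.00474, limma). *Hoxb6*, expressed in lateral mesoderm and trunk, was at 17.7 and 18.3 FPKM in L1CAM-positive libraries and 47.0, 45.4 and 40.9 FPKM in L1CAM-negative libraries. *Hoxb8*, known also from blood-derived myeloid cells, was at 19.6 and 19.9 FPKM in L1CAM-positive libraries and 32.7, 29.9 and 26.7 FPKM in L1CAM-negative libraries. Both were separated between the fractions, by -1.21 ± 0.07 on the log2 scale for *Hoxb6* (adjusted p = 0.00529) and -0.54 ± 0.09 for *Hoxb8* (SE; adjusted p = 0.0338, limma). *Hoxb2*, which acts in the hindbrain, was at 11.5 and 12.2 FPKM in L1CAM-positive libraries and 20.9, 20.0 and 27.8 FPKM in L1CAM-negative libraries. *Hoxb3*, another hindbrain and pharyngeal gene, was at 6.59 and 8.52 FPKM in L1CAM-positive libraries and 21.6, 19.7 and 16.4 FPKM in L1CAM-negative libraries. *Hoxb4*, known for its effect on blood stem cells, was at 6.93 and 6.02 FPKM in L1CAM-positive libraries and 13.9, 13.2 and 15.9 FPKM in L1CAM-negative libraries. No library of one fraction reached into the range of the other in these 3 genes, whose log2 fold changes were -0.83 (*Hoxb2*, adjusted p = 0.0428), -1.15 (*Hoxb3*, adjusted p = 0.0207) and -0.94 (*Hoxb4*, adjusted p = 0.0131, limma). *Hoxb5* was at 13.8 and 11.6 FPKM in L1CAM-positive libraries and 22.0, 19.3 and 16.4 FPKM in L1CAM-negative libraries and did not pass over all symbols (adjusted p = 0.0967, limma). *Hoxb7* differed least in the cluster: it was at 52.3 and 48.6 FPKM in L1CAM-positive libraries, where it was the highest HOX gene, and at 62.0, 61.2 and 51.8 FPKM in L1CAM-negative libraries. Its ranges overlapped, and the 95% interval of its log2 fold change ran between -0.49 and 0.09 (adjusted p = 0.280, limma).

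In the C cluster (chr15:102921131-103036856), 3 of 9 genes were lower in L1CAM-positive spheres and none higher (1 at an unadjusted p under 0.05 in limma, *Hoxc4*), beside 10.0% and 11.6% of all symbols. *Hoxc8*, which patterns motor pools of the brachial spinal cord, was at 10.5 and 11.1 FPKM in the L1CAM-positive libraries, against 38.5, 36.4 and 40.4 FPKM in the L1CAM-negative libraries. It had the largest log2 fold change of the 39 genes, -1.65 ± 0.06 (SE; adjusted p = 0.00373, limma). *Hoxc6*, a gene of the limb-level spinal cord, was at 21.2 and 23.3 FPKM in L1CAM-positive libraries and 54.0, 56.2 and 54.1 FPKM in L1CAM-negative libraries. *Hoxc5*, next to it, was at 3.04 and 2.73 FPKM in L1CAM-positive libraries and 8.49, 7.58 and 8.46 FPKM in L1CAM-negative libraries. Both were separated and lower in L1CAM-positive spheres, with log2 fold changes of -1.23 for *Hoxc6* (adjusted p = 0.00397) and -1.06 for *Hoxc5* (adjusted p = 0.00748, limma). At the 2 ends of the transcribed stretch the pattern differed. *Hoxc4*, a cervical-level gene, was at 24.0 and 23.0 FPKM in L1CAM-positive libraries and 20.9, 18.8 and 16.7 FPKM in L1CAM-negative libraries, with both L1CAM-positive values above, and did not pass (log2 fold change 0.30, adjusted p = 0.142, limma). *Hoxc9*, which sets thoracic identity in motor neurons, was at 2.98 and 2.75 FPKM in L1CAM-positive libraries and 2.41, 2.65 and 2.92 FPKM in L1CAM-negative libraries. These ranges overlapped, with a 95% interval of the log2 fold change between -0.15 and 0.28.

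The D cluster (chr2:74668225-74765142) had 1 gene in each direction among 9, which is near the 11.6% of all symbols that were higher and the 10.0% that were lower in L1CAM-positive spheres. *Hoxd4*, which acts at the hindbrain border and in the neck vertebrae, was at 9.69 and 9.08 FPKM in the L1CAM-positive libraries, against 6.02, 6.59 and 5.69 FPKM in the L1CAM-negative libraries. It was the single HOX gene higher in L1CAM-positive spheres, by 0.49 ± 0.08 on the log2 scale (SE; adjusted p = 0.0268, limma), and passed in 10 of 18 alternatives. Its direction was the same in all 18, but its fractions did not overlap, so leaving out a library could not reverse it. It did not pass without the L1CAM-positive library 25 (adjusted p = 0.156) or 31 (adjusted p = 0.122), nor without the L1CAM-negative library 25 (adjusted p = 0.103) or 31 (adjusted p = 0.0625, limma). *Hoxd9*, a posterior thoracic and lumbar gene, was at 2.6 and 2.35 FPKM in L1CAM-positive libraries and 4.67, 6.91 and 6.56 FPKM in L1CAM-negative libraries. All its L1CAM-negative values lay above, and its log2 fold change was -0.84 ± 0.17 (SE; adjusted p = 0.0448, limma). *Hoxd3* was at 4.23 and 4.44 FPKM in L1CAM-positive libraries and 2.49, 3.59 and 2.79 FPKM in L1CAM-negative libraries, separated like its neighbour *Hoxd4* but not past the test (adjusted p = 0.143, limma). In the annotation *Hoxd3* and *Hoxd4* share 388 exonic bases on 1 strand, and the gene model *Gm28230* covers 53.1% of the exonic bases of *Hoxd3*, so their reads may not be told apart in full. *Hoxd8*, the highest D gene, was at 20.8 and 11.3 FPKM in L1CAM-positive libraries and 24.1, 26.2 and 12.4 FPKM in L1CAM-negative libraries. Its libraries spread over the same range in both fractions, and the 95% interval of its log2 fold change, between -1.62 and 0.94, leaves its direction undetermined.

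**Figure D2:**
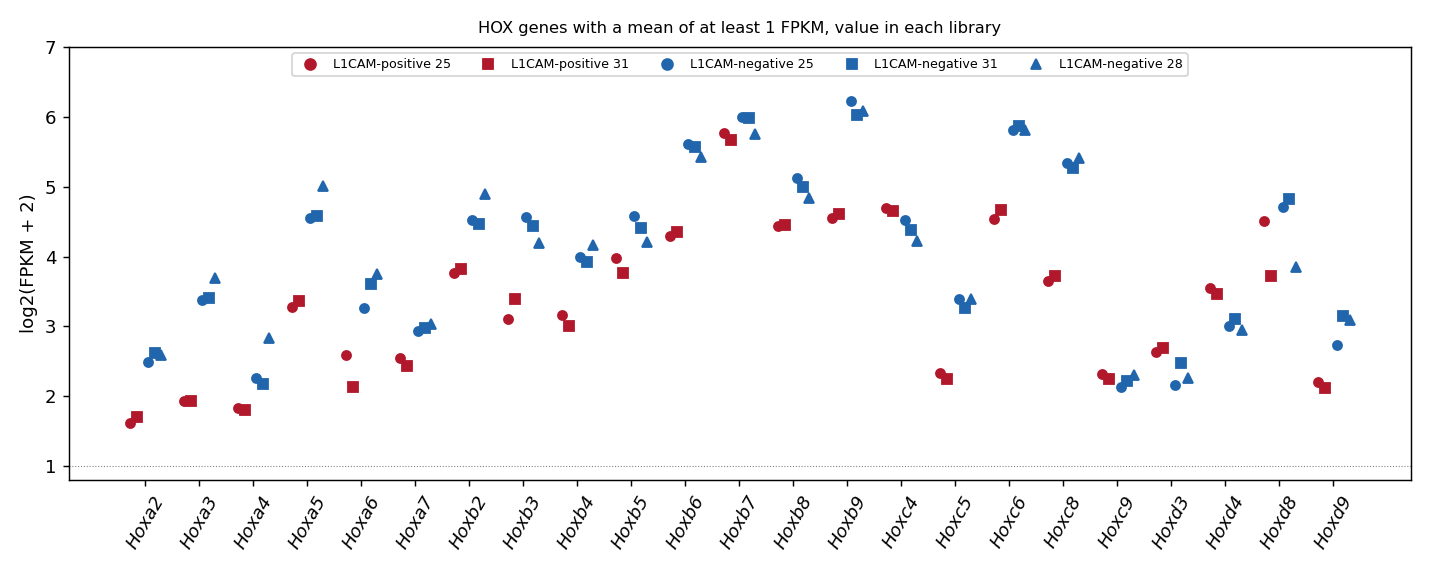
Level of each HOX gene with a mean of at least 1 FPKM (x axis, ordered by cluster and paralog number) as log2(FPKM + 2) (y axis) in each library. Red symbols are L1CAM-positive libraries 25 and 31, blue symbols L1CAM-negative libraries 25, 31 and 28, and the dotted line is the floor. Red and blue symbols are apart in most genes, overlap in *Hoxb7*, *Hoxc9* and *Hoxd8*, and stand in the opposite order in *Hoxc4*, *Hoxd3* and *Hoxd4*.

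Within both number 25 and number 31, 21 HOX genes were lower in the L1CAM-positive library than in the L1CAM-negative library of that number, 6 were higher, and 0 went opposite ways. These libraries also gave the calls, and a gene whose fractions did not overlap has to agree in both numbers. The counts are therefore no separate check, and the share of all symbols that agreed was not computed. The test was passed most often by *Hoxb6*, *Hoxb9*, *Hoxc6* and *Hoxc8*, which passed the test in 17 of 18 alternatives, all but the replicate block. Among the other genes lower in L1CAM-positive spheres, *Hoxa3* and *Hoxc5* passed in 15, *Hoxa2* in 14 and *Hoxb4* in 13 alternatives, and *Hoxa6* in 8. The highest adjusted p over the alternatives lay between 0.0630 and 0.222 for the 15 genes. Across the 15 genes the L1CAM-positive level was between 19.4% and 66.4% of the L1CAM-negative level, with a median of 39.4%.

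**Figure D3:**
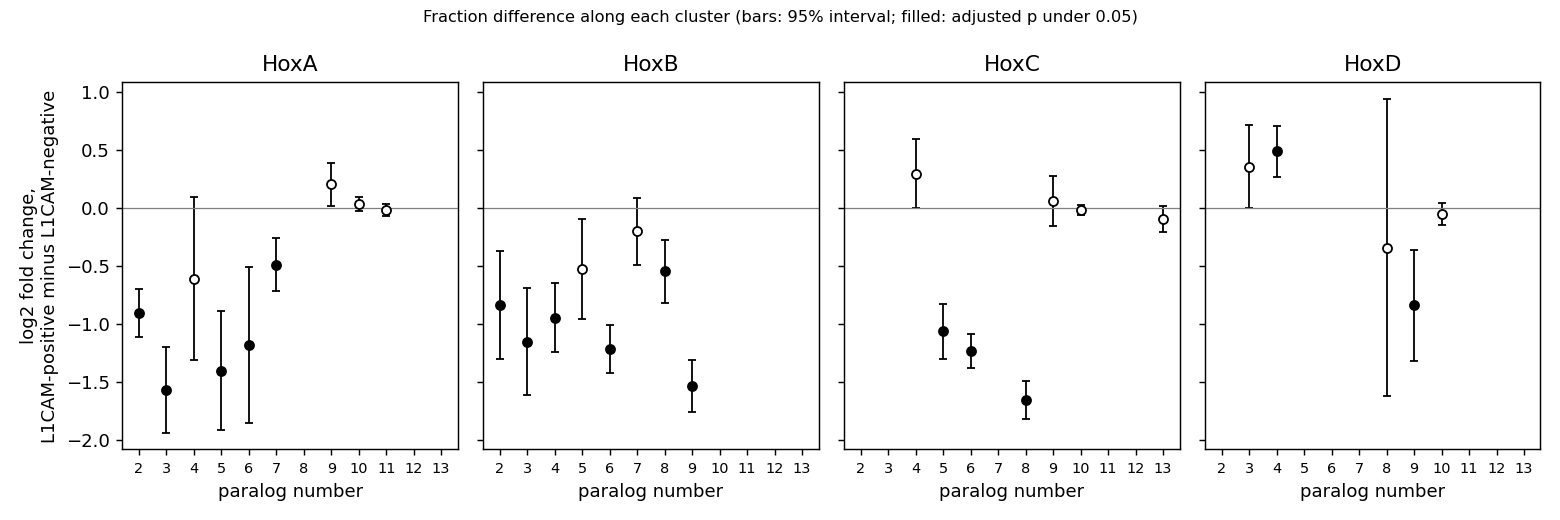
Log2 fold change, L1CAM-positive minus L1CAM-negative (y axis), against paralog number (x axis) in each cluster, for the HOX genes of paralogs 2 to 13 above the floor in at least 1 library. Bars are 95% intervals of the limma fit and filled symbols passed the adjusted p threshold of 0.05. Filled symbols lie below 0 in A, B and C, and in D 1 lies above (*Hoxd4*) and 1 below (*Hoxd9*).

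Summed over each cluster, the A genes gave 20.5 and 19.3 FPKM in the L1CAM-positive libraries 25 and 31, against 49.9, 53.5 and 69.2 FPKM in the L1CAM-negative libraries 25, 31 and 28. The B genes gave 150 and 148 FPKM in L1CAM-positive libraries and 293, 271 and 262 FPKM in L1CAM-negative libraries, and the C genes 61.7 and 63.0 FPKM in L1CAM-positive libraries and 125, 122 and 123 FPKM in L1CAM-negative libraries. These 3 clusters were thus separated between the fractions, at 34.6%, 54.0% and 50.7% of the L1CAM-negative mean. The D genes overlapped, with 37.3 and 27.2 FPKM in L1CAM-positive libraries and 37.3, 43.4 and 27.6 FPKM in L1CAM-negative libraries. Their mean was 32.3 ± 7.19 FPKM (SD, n = 2) in L1CAM-positive spheres and 36.1 ± 7.99 FPKM (SD, n = 3) in L1CAM-negative spheres, and most of their spread was that of the *Hoxd8* transcript used. All these sums take each gene by its transcript with the highest mean, so the D sums leave out part of the *Hoxd8* signal. With its transcripts summed, *Hoxd8* alone was at 44.9 and 46.0 FPKM in L1CAM-positive libraries. In the L1CAM-negative libraries 25, 31 and 28 it was at 48.4, 56.1 and 38.8 FPKM. All HOX genes together summed to 263 ± 8.74 FPKM in L1CAM-positive spheres and 492 ± 12.1 FPKM in L1CAM-negative spheres (SD, n = 2 and 3). The B cluster held the most HOX signal in every library, with 55.6% and 57.4% of the L1CAM-positive sums and 58.1%, 55.4% and 54.4% of the L1CAM-negative sums. With 2 against 3 libraries an exact permutation test of a sum cannot go below p = 0.1, so no test is given for the sums.

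**Figure D4:**
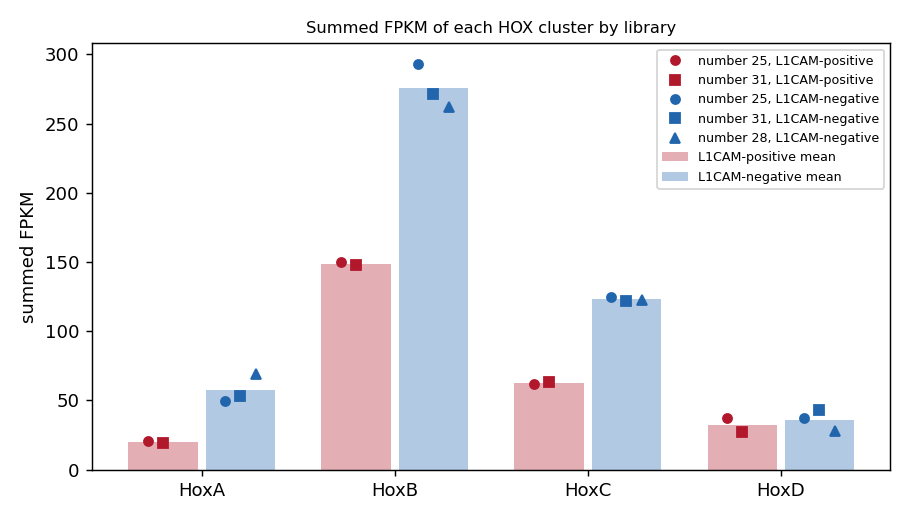
Summed FPKM of the genes of each HOX cluster (y axis) by cluster (x axis), with each gene taken by its transcript of highest mean. Bars are means over 2 L1CAM-positive (red, left of each pair) and 3 L1CAM-negative (blue, right) libraries, and symbols are single libraries. The fractions are apart in A, B and C and overlap in D, where the symbols of both lie between 27.2 and 43.4 FPKM.

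By paralog number, among paralogs 2 to 9 the L1CAM-positive sums were lowest relative to the L1CAM-negative sums in paralogs 9 and 6. Paralog 6 summed to 42.9 and 44.0 FPKM in L1CAM-positive libraries and 109, 112 and 106 FPKM in L1CAM-negative libraries. Paralog 9 summed to 27.4 and 28.0 FPKM in L1CAM-positive libraries and 80.3, 72.4 and 75.4 FPKM in L1CAM-negative libraries, most of it *Hoxb9*. Paralog 4 was close to even, at 42.2 and 39.6 FPKM in L1CAM-positive libraries and 43.6, 41.1 and 43.4 FPKM in L1CAM-negative libraries. Within it the members went different ways, since *Hoxb4* was lower and *Hoxd4* higher in L1CAM-positive spheres. Paralog 7, held up by *Hoxb7*, was at 56.1 and 52.0 FPKM in L1CAM-positive libraries and 67.6, 67.0 and 58.0 FPKM in L1CAM-negative libraries.

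Several transcripts were listed for 5 HOX genes. For *Hoxd8* there were 3, and their sum was 44.9 and 46.0 FPKM in L1CAM-positive libraries and 48.4, 56.1 and 38.8 FPKM in L1CAM-negative libraries. The sum varied far less between libraries than the single transcript above, and its log2 fold change was -0.05 ± 0.17 (SE; adjusted p = 1, limma). For *Hoxb3* both transcripts were lower in L1CAM-positive spheres, and their sum of 10.2 and 10.3 FPKM in L1CAM-positive libraries, against 29.6, 27.1 and 26.0 FPKM in L1CAM-negative libraries, gave a log2 fold change of -1.27 ± 0.06 (SE; adjusted p = 0.00416, limma). The *Hoxa9* transcripts ran in opposite directions at low levels. Its first was at 0.345 and 0.465 FPKM in L1CAM-positive libraries and 0.0123, 0.00566 and 0.236 FPKM in L1CAM-negative libraries. Its second was at 0.261 and 0.238 FPKM in the L1CAM-negative libraries 25 and 31 and at or below 0.00147 FPKM in the other 3 libraries, and neither transcript passed. The second transcripts of *Hoxa10* and *Hoxd11* added at most 0.001 FPKM. On the opposite strand, *Hoxb3os* overlaps 52.9% of the exonic bases of *Hoxb3* and 27.3% of those of *Hoxb2*, and *Hoxaas3* overlaps 20.4% of those of *Hoxa7*. The kit keeps the strand, but how the strand was set in counting is not given in the sources used here.

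The L1CAM-negative library 28, the single library of P5 mice, was compared with the L1CAM-negative libraries 25 and 31 in each cluster. Among the A genes above the floor in all libraries it was the highest of the 3 in 7 of 8, by a median of 0.30 on the log2 scale over the mean of the other 2. Among the B genes it was the lowest in 5 of 8, with a median difference of -0.19, and the medians were 0.06 for C and -0.09 for D. Over all genes above the floor in all libraries it was the highest L1CAM-negative library in 36.7% and the lowest in 44.8%. With so few genes in a cluster, the B count is near that share and is not read as particular to B. With 1 library, age, number and any other property of it cannot be told apart.

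The promoters of *Hoxd4* and *Hoxd9*, which lie near each other in the D cluster and differed in opposite directions, and of *Hoxb8* are shown from 250 bases before to 50 after the transcription start (RefSeq, GRCm38.p6, plus strand, 5′ to 3′). Capitals mark TTTATNG on either strand, letters found in sites of posterior HOX and CDX proteins. They stand at chr2:74721728-74722027, chr2:74697513-74697812 and chr11:96281655-96281954.
Hoxd4: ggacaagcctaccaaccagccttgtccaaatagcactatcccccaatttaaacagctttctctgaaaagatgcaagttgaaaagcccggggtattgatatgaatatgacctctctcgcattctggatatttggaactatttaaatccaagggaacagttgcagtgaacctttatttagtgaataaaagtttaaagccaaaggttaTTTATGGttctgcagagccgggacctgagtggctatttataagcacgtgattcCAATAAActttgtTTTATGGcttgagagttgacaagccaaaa
Hoxd9: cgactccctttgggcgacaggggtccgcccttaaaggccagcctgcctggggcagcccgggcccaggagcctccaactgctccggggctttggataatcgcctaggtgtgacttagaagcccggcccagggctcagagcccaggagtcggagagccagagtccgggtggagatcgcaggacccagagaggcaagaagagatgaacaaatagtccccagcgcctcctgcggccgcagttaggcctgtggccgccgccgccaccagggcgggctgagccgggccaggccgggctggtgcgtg
Hoxb8: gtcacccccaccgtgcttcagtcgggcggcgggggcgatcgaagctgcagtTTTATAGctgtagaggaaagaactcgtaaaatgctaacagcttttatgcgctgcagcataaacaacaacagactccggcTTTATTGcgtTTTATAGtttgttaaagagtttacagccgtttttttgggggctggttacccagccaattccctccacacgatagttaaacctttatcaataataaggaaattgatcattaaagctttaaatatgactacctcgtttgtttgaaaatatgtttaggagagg
*Hoxd4* and *Hoxb8*, higher and lower in L1CAM-positive spheres, each held 3 matches, and *Hoxd9* held none. Promoter sequences were at hand for 22 of the 39 HOX genes (24 promoters). TTTATNG was in 2 of the 24 (8.33%) and in 10.9% of 32851 mouse promoters of the same length. TGATTNAT, a joint PBX and HOX site, was in 2 of 24 (in *Hoxa2* and *Hoxd11*) and in 3.22% of all promoters, and TGACAG, bound by MEIS and PREP proteins, in 2 of 24 (in *Hoxa2* and *Hoxa3*) and in 19.2% of all, both strands searched. HOX promoters had a median of 14.5 CpG dinucleotides, against 7 in all promoters, and *Hoxd4* had 4.

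The 8 TALE cofactor genes looked at, whose proteins form DNA-binding complexes with HOX proteins, did not move as 1 group. In L1CAM-positive spheres 2 were lower and 1 was higher, beside 10.0% and 11.6% of all symbols. At an unadjusted p under 0.05 in limma, 3 were lower and 4 higher. The median log2 fold change was 0.29. *Meis2*, which stabilises PBX and HOX complexes, was at 2.38 and 2.66 in L1CAM-positive libraries and 4.29, 3.82 and 4.30 in L1CAM-negative libraries as log2(FPKM + 2). *Pknox2*, a PREP family gene, was at 1.58 and 1.68 in L1CAM-positive libraries and 2.93, 3.02 and 3.07 in L1CAM-negative libraries on that log2 scale. Neither overlapped between fractions, and their log2 fold changes were -1.62 for *Meis2* (adjusted p = 0.0181) and -1.37 for *Pknox2* (adjusted p = 0.00541, limma). *Pbx4* went the other way, at 2.79 and 2.46 in L1CAM-positive libraries and 1.54, 1.38 and 1.43 in L1CAM-negative libraries (log2 fold change 1.17, adjusted p = 0.0126, limma). *Pbx3* was at 3.39 and 3.40 in L1CAM-positive libraries and 6.19, 6.17 and 4.67 in L1CAM-negative libraries. It did not pass (adjusted p = 0.0775, limma), with library 28 far below the other L1CAM-negative libraries. *Pbx2* was at 5.12 and 5.11 in L1CAM-positive libraries and 4.89, 5.09 and 4.87 in L1CAM-negative libraries. It did not pass (adjusted p = 0.281, limma), nor did *Pknox1*. *Meis3* (log2 fold change 0.78, adjusted p = 0.0506, limma) and *Meis1* (0.41, adjusted p = 0.0516, limma) fell just short, with both L1CAM-positive libraries above.

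**Figure D5:**
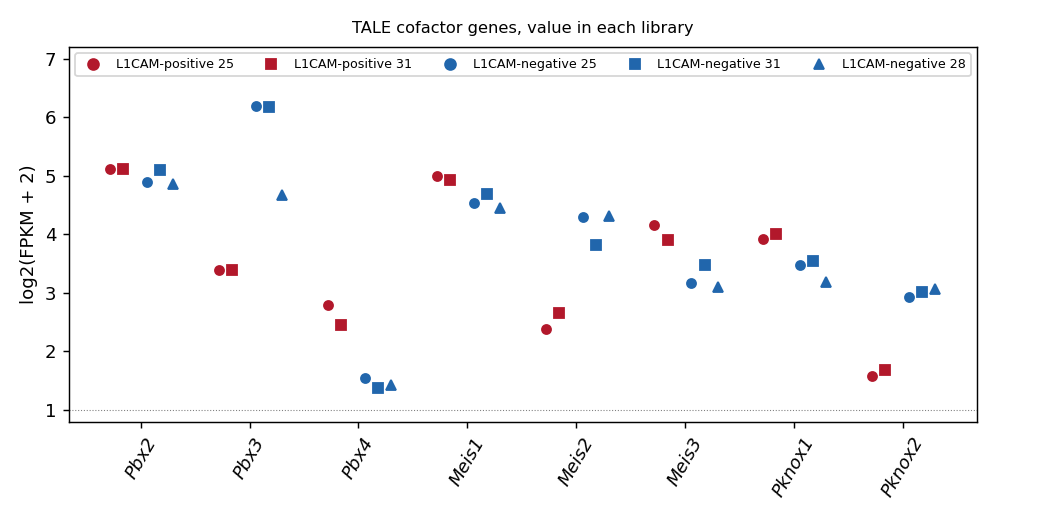
Level of the 8 TALE cofactor genes (x axis) as log2(FPKM + 2) (y axis) in each library, with red symbols for L1CAM-positive and blue symbols for L1CAM-negative libraries. *Pbx3*, *Meis2* and *Pknox2* lie lower in the L1CAM-positive libraries, and the other 5 higher, of which *Pbx4* alone passed the test.

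Retinoic acid and CDX proteins switch on HOX clusters in the embryo, and Polycomb and Trithorax proteins then keep genes off or on. *Rarb*, a retinoic acid receptor gene that is itself induced by retinoic acid, was at 5.02 and 5.09 in L1CAM-positive libraries and 4.74, 4.53 and 4.65 in L1CAM-negative libraries as log2(FPKM + 2), with a log2 fold change of 0.41 (adjusted p = 0.0379, limma). *Rarg*, another such receptor, was at 2.50 and 3.08 in L1CAM-positive libraries and 3.79, 3.91 and 3.85 in L1CAM-negative libraries on that log2 scale, with a log2 fold change of -1.06 (adjusted p = 0.0407, limma). These were the only 2 of 6 upstream activator genes that passed, 1 in each direction. With 11.6% of all symbols higher and 10.0% lower, a count this small is near the background. *Cdx1* and *Cdx4* were at the floor throughout. Of 22 Polycomb genes, 4 were higher and 2 lower in L1CAM-positive spheres, beside 11.6% and 10.0% of all symbols, so the share that was lower is near that of all symbols and neither count is read as particular to the list. The largest differences were in *Jarid2*, a subunit that guides the repressive complex PRC2 (log2 fold change 1.09, adjusted p = 0.0117), *Pcgf1* of a PRC1 variant (0.92, adjusted p = 0.0416) and *Cbx7*, which reads the PRC2 mark (0.90, adjusted p = 0.0178, limma). The most abundant, *Rbbp7* and *Cbx6*, did not pass, with log2 fold changes of -0.02 and 0.27. Of 12 Trithorax genes, 4 were higher and 0 lower in L1CAM-positive spheres (6 and 0 at an unadjusted p under 0.05 in limma). The shares of all symbols were 11.6% and 10.0%. All 12 were above the floor, and without symbols at the floor in every library these shares were 15.9% and 15.1%. The 4 higher genes included *Psip1*, which tethers the MLL complex to chromatin (log2 fold change 1.25, adjusted p = 0.0343, limma). They also included the H3K27 demethylase *Kdm6b* (0.35, adjusted p = 0.0199) and *Hcfc1* (0.23, adjusted p = 0.0312, limma). The most abundant, *Dpy30*, did not pass (0.21, adjusted p = 0.428, limma).

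Genes for non-coding RNAs lie between the HOX genes, and 14 of 18 listed were in the table. Of these, 2 were lower and 0 higher in L1CAM-positive spheres (2 and 0 at an unadjusted p under 0.05 in limma), and with 10.0% of all symbols lower and 11.6% higher, a count this small is near the background. *Gm53*, next to *Hoxb9*, was at 3.26 and 3.47 in L1CAM-positive libraries and 5.46, 5.19 and 4.88 in L1CAM-negative libraries as log2(FPKM + 2), with a log2 fold change of -1.81 ± 0.21 (SE; adjusted p = 0.0142, limma). *Hoxaas3*, antisense in the A cluster, was at 1.34 and 1.72 in L1CAM-positive libraries and 2.65, 2.57 and 2.54 in L1CAM-negative libraries on that log2 scale (log2 fold change -1.06, adjusted p = 0.0183, limma). *Gm53* ends 679 bases before the hairpin of *Mir196a-1* (chr11:96265164-96265265), which ends 6064 bases before *Hoxb9* (chr11:96271330-96276595), so that this stretch held 3 neighbours with lower L1CAM-positive values. *Mir196a-1* was at 11.32 and 10.48 in L1CAM-positive libraries and 12.91, 13.05 and 12.17 in L1CAM-negative libraries on that log2 scale, separated but not past the test (log2 fold change -1.81 ± 0.77, SE; adjusted p = 0.208, limma). *Mir10a*, beside *Hoxb4*, was at the floor in both L1CAM-positive libraries and at 6.70, 6.78 and the floor in the L1CAM-negative libraries. Libraries made from polyadenylated RNA do not measure mature miRNAs, and FPKM of a hairpin as short as the 68 bases of *Mir10b* is set by few fragments: *Mir10b* was at 14.75 and *Mir615* at 9.10 in the L1CAM-negative library 31 and both were at the floor in the other 4.

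Among the miRNAs encoded in the HOX clusters are the miR-10 and miR-196 families, and miR-196 is known in mice to cleave *Hoxb8* RNA. Their mature sequences (RefSeq, 5′ to 3′) are given with the seed, bases 2 to 8 and the part that pairs with targets, in capitals.
mmu-miR-10a-5p: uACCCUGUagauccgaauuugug
mmu-miR-10b-5p: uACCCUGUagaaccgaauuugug
mmu-miR-196a-5p: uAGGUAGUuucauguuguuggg
mmu-miR-196b-5p: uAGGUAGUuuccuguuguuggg
The miR-10 pair (*Mir10a* in B, *Mir10b* in D) shares the seed ACCCUGU, and the miR-196 genes (*Mir196a-1* in B, *Mir196a-2* in C and *Mir196b* in A) share AGGUAGU. *Mir196a-2* and *Mir196b* were at the floor in all 5 libraries, so the hairpin in B was the single miR-196 locus with signal.

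Of 11 measured genes that border the clusters, 2 were higher and 2 lower in L1CAM-positive spheres, beside 11.6% and 10.0% of all symbols. Beyond the A cluster, *Snx10*, a sorting nexin gene, was higher in L1CAM-positive spheres (log2 fold change 1.79, adjusted p = 0.0110), while the adaptor gene *Skap2*, nearer to the cluster, was lower (-0.88, adjusted p = 0.0235). Beyond the C cluster, *Cbx5*, which encodes a heterochromatin protein, was higher (0.48, adjusted p = 0.0363, limma). *Mtx2* next to the D cluster and *Hibadh* were the most abundant and did not pass, with log2 fold changes of 0.01 and -0.63.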

How the data were processed

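Libraries were made by the submitters with a stranded mRNA kit and, per the submitters' processing notes, aligned to mm10 with STAR 2.6.1a and quantified with Cufflinks. The authors deposited 1 table of log2 values for 32737 transcripts, quantile normalised between samples per the study's methods. The annotation release and the samples used for that normalisation are not given in the sources used here. The lowest value in the table was exactly 1, in 20.7% to 22.0% of transcripts per library, so the log2 values deposited by the authors were read as log2(FPKM + 2), and FPKM was recovered as 2 to the power of the value, less 2. This offset was inferred and is not stated. Depth is unknown, so no counting interval is given. All 5 columns of sample values were used (0 columns of other samples).

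Each of 23903 symbols was represented by its transcript with the highest mean, which left out 202 transcripts with no symbol. Fractions were compared with limma 3.58.1 (R 4.3.3; lmFit, eBayes with a mean-variance trend), 2-sided, L1CAM-positive minus L1CAM-negative, on all symbols with no filter and no block. Calls needed a Benjamini-Hochberg adjusted p under 0.05, and the script was tested on simulated data. Values in every library are given for each HOX gene called, for the 2 highest of each cluster and for the highest of each paralog number. From the other lists at most the 3 largest called changes and the 2 highest genes were named, and the few other genes named were picked with their values known. The values of some genes are not reported here. The members and lists were chosen with earlier results of these data known. Alternatives were other offsets (0.1, 5), filters (above the floor; 1 FPKM in 2 libraries), summed or separate transcripts, quantile, median or housekeeping scaling, variance models, culture period, a replicate block and leaving out each library. Housekeeping centring was added after seeing the data. Tables and plots were made with Python 3.11.15, pandas 2.3.3, numpy 2.4.6 and matplotlib 3.10.9. Gene coordinates and exon overlaps are from GENCODE and sequences from RefSeq, both on GRCm38.p6.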

Additional observations from a re-analysis of the deposited data

How the results depend on the processing

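The number of HOX genes lower in L1CAM-positive spheres ranged between 4 and 13 when single libraries were left out, and the number higher between 0 and 3. Over all symbols these ranges were 521 to 2942 lower and 1301 to 2805 higher in L1CAM-positive spheres. Without the L1CAM-negative library 28, *Hoxa9*, *Hoxa10* and *Hoxd4* were higher in L1CAM-positive spheres. The robust variance estimate left 5 HOX genes lower and 0 higher (14 and 1 at an unadjusted p under 0.05 in limma), and 352 and 797 of all symbols. With culture period as a term, 8 were lower and 0 higher (15 and 1 unadjusted), and 1273 and 1727 of all symbols. In the paired fit, with the replicate block, 0 HOX genes passed in either direction (15 lower and 4 higher unadjusted), and 0 of all symbols. In that fit library 28 has a term of its own and adds nothing to the fraction difference. Almost no residual degrees of freedom are left, so the fall to 0 cannot decide whether genes differ. The deviations of numbers 25 and 31 correlated between fractions at r = 0.215 over 16032 genes and -0.293 over 25 HOX genes. No label pairs the fractions of a number, but both fractions of each number shared gland age and culture period. Between numbers 25 and 31 the culture period differed, so number and culture period cannot be told apart. Housekeeping centring left 0 HOX genes higher in L1CAM-positive spheres (2 unadjusted) and 14 lower, and 2502 and 2162 of all symbols. A filter of 1 FPKM left 23 HOX genes, of which 16 were lower and 1 was higher in L1CAM-positive spheres, beside 22.4% and 21.2% of all symbols that passed it. The median HOX log2 fold change was -0.58 with an offset of 0.1, -0.52 without symbols at the floor and -0.84 with the filter of 1 FPKM. Values that changed sign belonged to genes that had not passed. With housekeeping centring, *Hoxa11* was at 0.0184, *Hoxc10* at 0.0193 and *Rbbp7* at 0.0143. With single libraries left out, *Hoxd8* ranged between -0.730 and 0.0539, *Rbbp7* between -0.179 and 0.0779 and *Mtx2* between -0.0786 and 0.107. *Mtx2* was at -0.0432 with the replicate block and -0.0150 with culture period. The depth behind each value is unknown, which limits what can be read from genes under 1 FPKM.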

Other observations

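Outside the HOX clusters, 21 other genes of positional homeobox, T-box and related factors were looked at, and 7 of them differed: 2 were higher and 5 lower in L1CAM-positive spheres (limma, adjusted p under 0.05), beside 11.6% and 10.0% of all symbols. *Hand1*, a factor of the heart and of sympathetic neurons, was at 7.35 and 7.14 in the L1CAM-positive libraries 25 and 31, against 3.79, 3.81 and 1.97 in the L1CAM-negative libraries 25, 31 and 28, as log2(FPKM + 2). *Tbx20*, a T-box factor of heart and hindbrain motor neurons, was at 4.72 and 4.50 in L1CAM-positive libraries and 2.23, 2.07 and 1.53 in L1CAM-negative libraries. Both were separated, with log2 fold changes of 4.05 for *Hand1* (adjusted p = 0.0344) and 2.67 for *Tbx20* (adjusted p = 0.0109, limma). *Gata6*, a factor of the adrenal cortex, was at 3.65 and 3.72 in L1CAM-positive libraries and 5.62, 5.77 and 5.62 in L1CAM-negative libraries, with a log2 fold change of -1.98 (adjusted p = 0.00363, limma). *Wt1* and *Tcf21*, factors of the mesoderm that forms the adrenal capsule and cortex, named after their values were seen, were also lower in L1CAM-positive spheres, with log2 fold changes of -1.49 (adjusted p = 0.00500) and -1.95 (adjusted p = 0.0349, limma). In L1CAM-negative spheres, library 28 had the lowest values of *Hand1* and *Tbx20* and the lowest summed chromaffin markers (144 FPKM, against 581 and 611 FPKM in libraries 25 and 31). Their relation was not tested.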
